A study of Brassica rapa with 28 samples.

Results

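In leaves of Brassica rapa that were kept in foil and then uncovered, a module of 100 genes had its lowest wild-type level at recovery. Its level in darkness was close to the starting one, which was measured in another leaf that stayed uncovered. The 100 were taken from 48826 gene IDs of a raw count table, chosen by measured values of the wild-type libraries alone. CPM values were each count times 1000000 over the library's column total, and a level L was log2(CPM + 1), averaged over the libraries of a stage. A gene had to average at least 3 CPM at pre and to differ by less than 0.5 in L between dark and pre. These 2 conditions were met by 5142 gene IDs. The score was the lowest of the pre, 24hr and dark levels minus the recovery level, and the 100 highest scores were kept. The wild-type values below therefore describe the choice and are not tested. The libraries of the BrphyB-3 mutant played no part in the choice, and the tests are on them.

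All plants were of the line R-o-18, either wild type or carrying BrphyB-3, a mutant allele of a gene for phytochrome B. Each library came from a pool of 3 plants, 3 weeks old at the start, grown in days of 16 h light and 8 h dark, and sampled at 5 h of the light period. The pre and 24hr punches were taken 24 h apart from a leaf left uncovered. A second leaf of the same plants was in foil until the dark punch, 72 h after pre, and gave the recovery punch after 24 h without foil, 96 h after pre. The wild type had 4 pools, replicates 3 to 6, and the mutant had 3, replicates 3 to 5. Every pool was followed through the 4 stages, so 28 libraries formed 8 groups. The mutant is represented by a single allele. No uncovered leaf was sampled at 96 h, so the effects of recovery and of leaf age at that time cannot be told apart. The foil leaf was not sampled at pre or 24hr. When dark or recovery is compared with those stages, effects of the stage and of the leaf cannot be told apart. The recovery leaf and the 24hr leaf had both been punched 24 h earlier.

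Phytochrome B is a photoreceptor that red light switches on and far-red light or darkness switches off, and in its active form it restrains growth-promoting transcription factors. In Arabidopsis, a single leaf shaded on an otherwise lit plant loses chlorophyll and enters senescence, while photosynthesis transcripts decline. The genes described here were chosen for another pattern. Their level in darkness is close to that of the uncovered leaf at pre, and their level after the return of light is low.

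Total counts ran from 4928822 to 14159657 per library. The files did not pair gene IDs with names, and 0 IDs matched the RefSeq gene table, so no member is given a name, a function or a sequence, and leaf marker genes could not be looked up. Only 2 members are printed by ID, and others are identified by their rank in the score. All 100 members passed the low-count filter, and 3 of them had 3 or fewer counts in at least 1 library.

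In the wild type, scores ran from 2.69 at rank 1 and 1.76 at rank 2 to 0.66 at rank 100, and the gene at rank 101 also scored 0.66. The ranking had no natural break there. At rank 100 the levels were 3.08 at pre, 3.12 at 24hr, 3.46 at dark, then 2.42 at recovery, and at rank 101 they were 2.29, 1.81, 1.79 and 1.14. The median score was 0.85. The next lowest stage was pre for 42 members, 24hr for 34 and dark for 24, so no single other stage set the floor.

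The members were moderately expressed. Their wild-type mean at pre ran from 3.61 to 1797 CPM with a median of 22.4 CPM, against a median of 14.9 CPM over all 5142 genes that met the 2 conditions. There were 24 members below 10 CPM, 58 from 10 to 100 CPM and 18 at 100 CPM or more. The share at 100 CPM or more was 18.0% of the members and 6.55% of the 5142 genes.

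The median L of the 100 members was taken in each library. In wild-type pools 3, 4, 5 and 6 it was 4.66, 4.57, 4.39 and 4.60 at pre, 4.22, 4.30, 4.32 and 4.80 at 24hr, 4.60, 4.49, 4.72 and 4.53 at dark, then 3.39, 3.20, 3.13 and 3.72 at recovery. All 4 recovery libraries lay below the other 12, as the choice of the genes favours.

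In mutant pools 3, 4 and 5 it was 4.55, 4.14 and 4.30 at pre, 4.66, 4.51 and 4.61 at 24hr, 5.02, 4.32 and 4.50 at dark, then 3.62, 3.19 and 3.15 at recovery. The 3 mutant recovery libraries also lay below the other 9. Group means of this median in the mutant were 4.33 ± 0.20 (SD, n = 3) for pre, 4.60 ± 0.08 for 24hr, 4.61 ± 0.36 for dark and 3.32 ± 0.26 for recovery. Over the other genes that met the 2 conditions, the median L stayed between 3.95 and 4.32 in all 12 mutant libraries, and between 4.00 and 4.15 in the 3 recovery libraries.

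**Figure D1:**
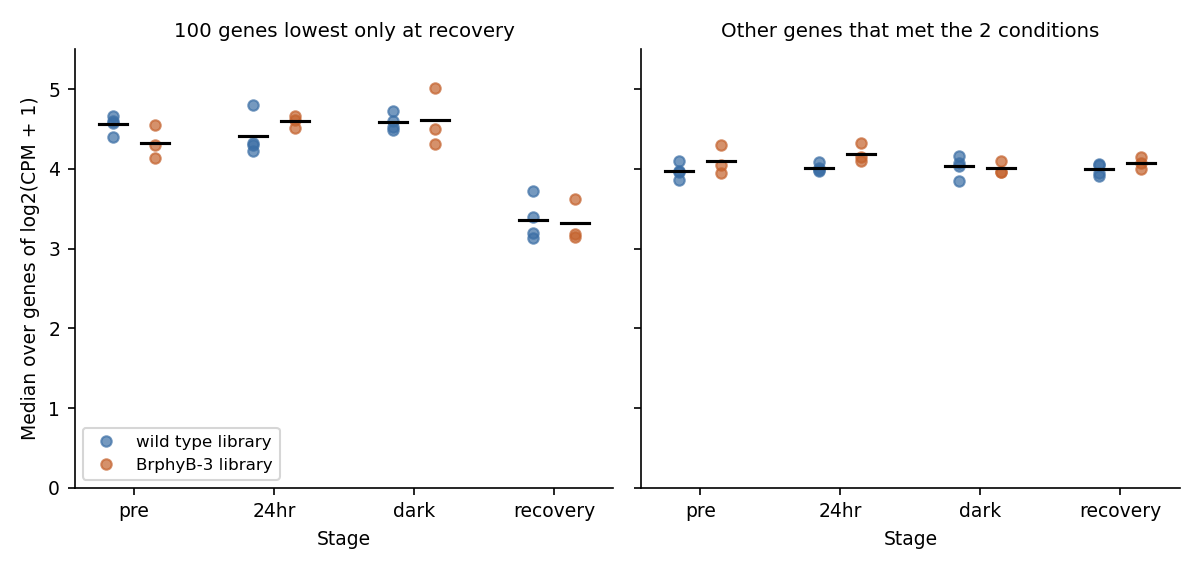
Median over genes of log2(CPM + 1) in each library, by stage, for the 100 members (left) and for the other genes that met the 2 conditions (right). Each point is a library and black bars are group means. The members' medians at recovery lie between 3.13 and 3.72 in both genotypes, below every library of the other stages. The other genes' medians at recovery overlap those of each other stage in both genotypes.

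The members' summed level was also lowest at recovery. The rank 1 gene, which had the highest wild-type mean at pre, was left out of the sum. In the mutant the other 99 members summed to 5407 ± 522 CPM (SD, n = 3) for pre, 6688 ± 396 for 24hr, 6644 ± 788 for dark and 3138 ± 377 for recovery. The mutant recovery libraries ran from 2714 to 3437 CPM, and no library of another mutant stage was under 4819 CPM. These sums include the abundant gene at rank 59. Its mutant means were 792, 1013, 803 and 710 CPM at pre, 24hr, dark and recovery. At recovery it was above the rank 1 gene, which had a mutant mean of 600 CPM. The rank 59 gene was called in no mutant recovery contrast. Bulk counts cannot tell apart fewer cells of a type and less RNA per cell.

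Gene by gene, recovery had the lowest mutant stage mean for 91 of 100 members, against 33.8% of the genes that met the 2 conditions. Dark was the lowest stage for 6 members, pre for 2 and 24hr for 1. The mutant gap, the lowest of the pre, 24hr and dark means of L minus the recovery mean, had a median of 0.64, with quartiles of 0.27 and 1.05. The median over the other 5042 genes that met the 2 conditions was -0.17. The mutant gap was 0.66 or more, the lowest wild-type score, for 46 members.

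Each mutant pool gave a course of its own, because its 4 libraries came from the same plants. The recovery library was the lowest of the pool's 4 for 66 members in pool 3, against 28.4% of the genes that met the 2 conditions. It was the lowest for 87 members in pool 4, against 36.6%, and for 85 in pool 5, against 29.0%. All 3 pools had recovery lowest for 52 members, against 9.49%, and 2 members had it in none. Pool 3 had the smallest median gap, 0.29, compared with 0.75 in pool 4 and 0.45 in pool 5.

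Library values were then compared without regard to pool. Every mutant recovery library was below all 9 other mutant libraries for 35 members, against 4.1% of the genes that met the 2 conditions. Taken stage by stage, the recovery libraries were all below the pre libraries for 47 members (9.61%), below the 24hr libraries for 60 (17.7%) and below the dark libraries for 57 (18.7%), the percentages again being those of the 5142 genes. These stage comparisons share the recovery libraries.

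Recovery was tested against each other mutant stage across 24992 gene IDs with edgeR's quasi-likelihood test and a Benjamini-Hochberg adjusted p under 0.05. The 8 group means were fitted to all 28 libraries, so the spread was also estimated from the wild type. Because the 3 contrasts share the recovery libraries, their results are not independent of one another. In none of them was a member higher at an unadjusted p under 0.05.

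Against dark, 55 of 100 members fell and none rose, against 26.6% of all genes tested that fell and 8.17% of the genes that met the 2 conditions. Of the 24992 genes tested 7002 rose, and of the other 5042 that met the 2 conditions 1190 did. The median log2 fold change of the members was -1.14, while it was 0.06 over all genes tested and 0.22 over the other genes that met the 2 conditions. In a fit to the 12 mutant libraries alone, 52 members fell, with 26.3% of all genes. This comparison stayed on the same leaf, 24 h apart.

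Against 24hr, 37 members fell and none rose, with 2.94% of all genes and 3.48% of the genes that met the 2 conditions. The members' median log2 fold change was -1.09, compared with -0.02 over all genes tested. With the mutant libraries alone, 20 members fell, with 0.99% of all genes. The count was 21 without mutant replicate 4 and 4 without mutant replicate 5. With the same members and 1 wild-type pool left out of the fit it was 32 to 40. When the list itself was also chosen again without wild-type replicate 5, 23 of that list fell.

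Against pre, 20 members fell and none rose. The shares that fell were 1.25% of all genes and 1.24% of the genes that met the 2 conditions. Only 233 of the 24992 genes tested rose, and 33 of the other 5042, so the absence of a rise says little here too. The median log2 fold change was -0.88, compared with 0.00 over all genes tested. The calls of members that fell against pre were lost when the wild-type libraries were left out of the fit. With the mutant libraries alone, 0 members passed by edgeR, where 0.0295% of all genes fell, and the smallest adjusted p of a member was 0.0561. In that fit 46 members were lower at an unadjusted p under 0.05, but the share over all genes was not counted there. In the main edgeR fit 48 members were, with 1992 of 24992 genes tested. The DESeq2 Wald test called 25 members, with 490 of 48826 gene IDs lower. It used all libraries, so it does not bear on the loss without the wild type. By edgeR with both genotypes, the count of adjusted calls was 1 without mutant replicate 4 and 8 without mutant replicate 5. With the same members and 1 wild-type pool left out of the fit it was 15 to 20. A list chosen again without wild-type replicate 5, which shared 60 genes with the members, had 13 that fell.

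The adjusted p was under 0.05 in all 3 recovery contrasts for 19 members, against 0.468% of all genes tested. With the mutant libraries alone this count was 0, because of the contrast with pre, and it was 0 without mutant replicate 4 and 3 without mutant replicate 5. It was 14 to 19 for the same members with 1 wild-type pool left out of the fit, and 12 for the list chosen again without wild-type replicate 5. A log2 fold change of -1 or lower was fitted for 39 members against pre, 53 against 24hr and 53 against dark. Over all genes tested the share at that size was 6.88%, 8.34% and 21.5%.

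The dark level was less steady in the mutant than the choice made it in the wild type. Mutant dark and pre means differed by less than 0.5 in L for 54 members, against 69.6% of the genes that met the 2 conditions. Dark was higher by 0.5 or more for 37 members and lower by 0.5 or more for 9. The share in each direction was not counted over the genes that met the 2 conditions. The excess of 37 over 9 is therefore not shown to be particular to the members. These L values use column totals. With TMM factors in their place, the mutant dark level moved by -0.17 in log2 against pre. In the test of dark against pre in the mutant, 15 members rose, against 3.58% of the genes that met the 2 conditions and 26.6% of all genes. In the same test 2 members fell, against 21.2% and 28.9%. The members' median log2 fold change was 0.20, and that of the other genes that met the 2 conditions was -0.27. The count of 17 was 5 without mutant replicate 3 and 10 without mutant replicate 5. For the same members it was 15 to 21 with 1 wild-type pool left out of the fit. Lists chosen again had 26 calls without wild-type replicate 3 and 7 without wild-type replicate 6.

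Between the punches of the uncovered leaf, 24hr against pre, edgeR called 0 members and 0.0% of all genes in the mutant. At an unadjusted p under 0.05 there were 11 members, 1 of them lower, against 3.42% of all genes tested and 1.77% of the other genes that met the 2 conditions. DESeq2 called 0 members with 11 at that p. The median log2 fold change of the members was 0.29, above that of all genes tested and of the other genes that met the 2 conditions, both 0.01. It was negative for 26 of 100 members, against 48.5% of all genes and 47.8% of those others.

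The rank in the wild type carried over to the mutant in part. Ranks 1 to 25 had a median mutant gap of 0.94, ranks 26 to 50 of 0.50, ranks 51 to 75 of 0.59 and ranks 76 to 100 of 0.64. Below the cutoff the median was 0.36 over ranks 101 to 200, 0.16 over ranks 201 to 500 and 0.09 over ranks 501 to 1000. Recovery was the lowest mutant stage for 76 of 100 genes at ranks 101 to 200 and for 194 of 300 at ranks 201 to 500.

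**Figure D2:**
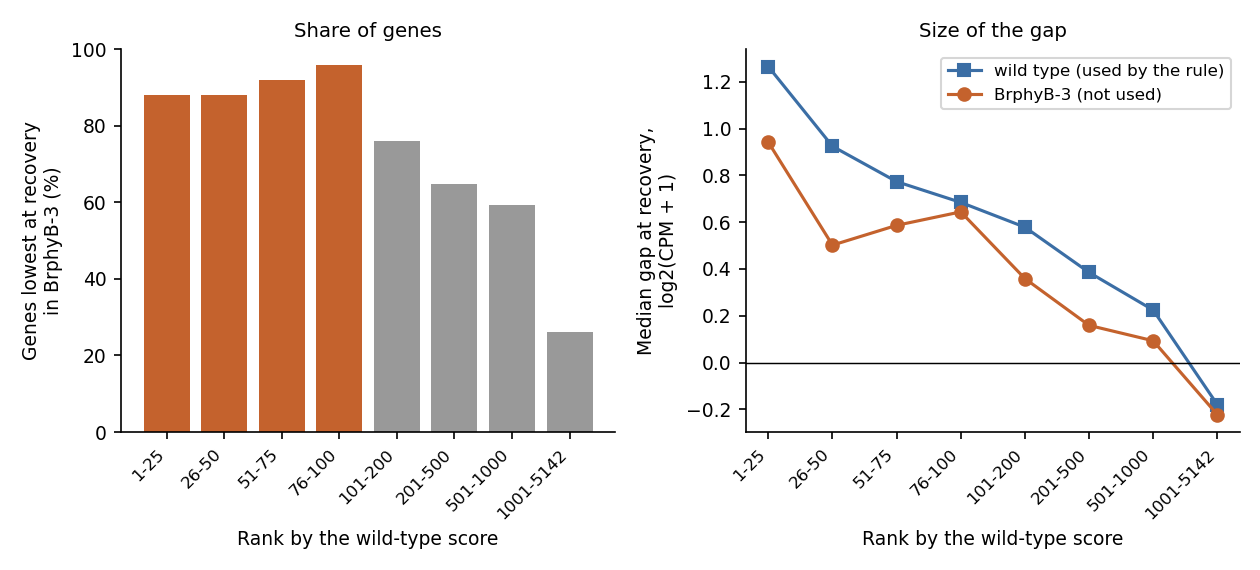
Genes that met the 2 conditions, in bands of their wild-type rank: the share with the lowest mutant mean at recovery (left, percent) and the median gap at recovery in log2(CPM + 1) in both genotypes (right). Bands of members are orange at left; the share is 88.0% to 96.0% in those bands, 76.0% at ranks 101 to 200 and 26.1% from rank 1001 on.

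The mutant gap exceeded the wild-type gap for 32 members. Members were kept for a high wild-type gap, so the choice itself favours a smaller gap in the mutant. The count therefore cannot show a difference between the genotypes. Across the 100 members the gaps of the genotypes correlated with r = 0.20 (Pearson) and rho = 0.19 (Spearman), and r was 0.24 without the rank 1 gene. Across all 5142 genes that met the 2 conditions, r was 0.69 and rho was 0.61. The points are genes of the same libraries, so these values are descriptions, and the cut on the wild-type score narrows the range of the members.

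**Figure D3:**
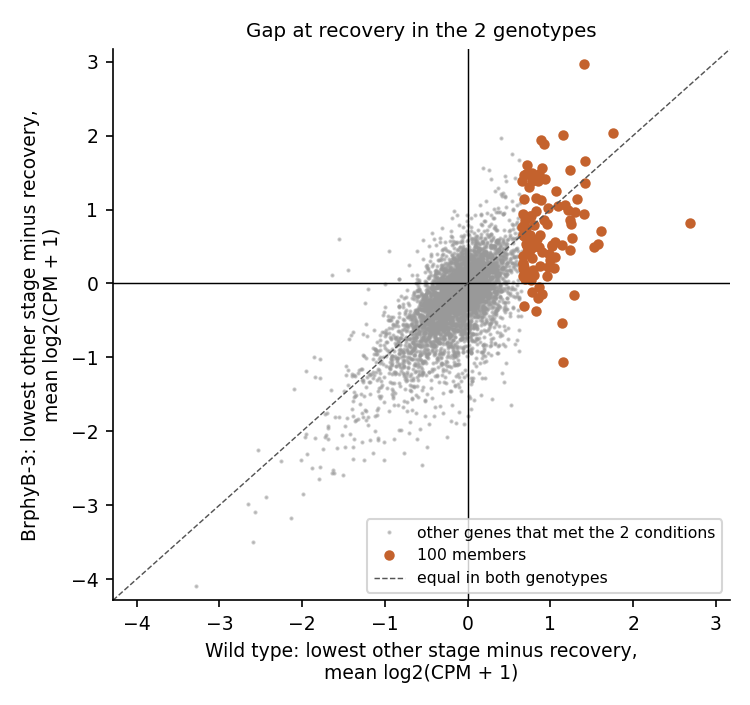
Gap at recovery (lowest of the pre, 24hr and dark means minus the recovery mean, in log2(CPM + 1)) in the wild type (x axis) and in BrphyB-3 (y axis), a point for each gene that met the 2 conditions. All members (orange) lie right of 0.66 on the x axis by the rule, and 91 of 100 lie above 0 on the y axis.

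The members printed by ID are the pair with the largest mutant falls against pre among 18 that met a naming rule. It asked for an adjusted p under 0.05 in all 3 contrasts and a mutant mean of at least 10 CPM at pre. It also asked for recovery libraries below the other 9. Their large falls, low adjusted p-values in the main fit and separate recovery libraries thus follow from the choice and are no separate support.

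BraA09000780 had rank 8, with a score of 1.41. In mutant pools 3, 4 and 5 it stood at 190, 417 and 319 CPM at pre, 246, 625 and 459 CPM at 24hr, 434, 215 and 393 CPM at dark, then 52.2, 17.1 and 54.6 CPM at recovery. Every recovery library was below the other 9, as the naming rule required, and by a wide margin. In wild-type pools 3 to 6 it stood at 416, 512, 294 and 423 CPM at pre, 339, 498, 369 and 356 CPM at 24hr, 269, 390, 378 and 172 CPM at dark, then 250, 50.7, 53.0 and 200 CPM at recovery. The wild-type recovery libraries split, with pools 4 and 5 low and pools 3 and 6 within the range of dark. In the mutant the log2 fold change of recovery was -2.92 against pre (SE 0.55, Benjamini-Hochberg adjusted p by edgeR 0.00818), -3.36 against 24hr (SE 0.56, adjusted p 0.00123) and -2.91 against dark (SE 0.55, adjusted p 0.000105). Against pre, edgeR's adjusted p was 0.0612 with the mutant libraries alone, 0.099 without mutant replicate 4 and 0.0647 without mutant replicate 5. Over its 13 alternatives (edgeR or DESeq2) it ran from 1.8e-05 to 0.099.

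BraA09004434 had rank 44, with a score of 0.89, and was a low gene. In mutant pools 3, 4 and 5 it stood at 6.46, 11.8 and 13.6 CPM at pre, 4.96, 14.2 and 8.97 CPM at 24hr, 14.9, 6.24 and 4.97 CPM at dark, then 3.45, 0.216 and 1.25 CPM at recovery. The recovery values rest on 41, 3 and 12 counts. In the wild type its mean was 4.72 ± 1.20 CPM (SD, n = 4) for pre, 3.98 ± 1.44 for 24hr, 3.55 ± 1.63 for dark and 1.48 ± 1.09 for recovery. Wild-type pools 3 to 6 stood at 3.07, 0.677, 0.839 and 1.35 CPM at recovery. In pool 3 recovery was above 24hr, at 2.33 CPM, and also above the dark library of pool 6, at 1.51 CPM. In the mutant the log2 fold change of recovery was -2.74 against pre (SE 0.63, Benjamini-Hochberg adjusted p by edgeR 0.0218), -2.46 against 24hr (SE 0.63, adjusted p 0.0232) and -2.29 against dark (SE 0.63, adjusted p 0.00386). With the mutant libraries alone the edgeR adjusted p was 0.155 against pre and 0.117 against 24hr. Without mutant replicate 4 the log2 fold change against 24hr was -1.48 (adjusted p 0.27), and without mutant replicate 5 the adjusted p-values were 0.22 against pre and 0.218 against 24hr. Over 13 alternatives (edgeR or DESeq2) they ran from 0.00289 to 0.22 against pre, and from 0.00301 to 0.27 against 24hr.

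**Figure D4:**
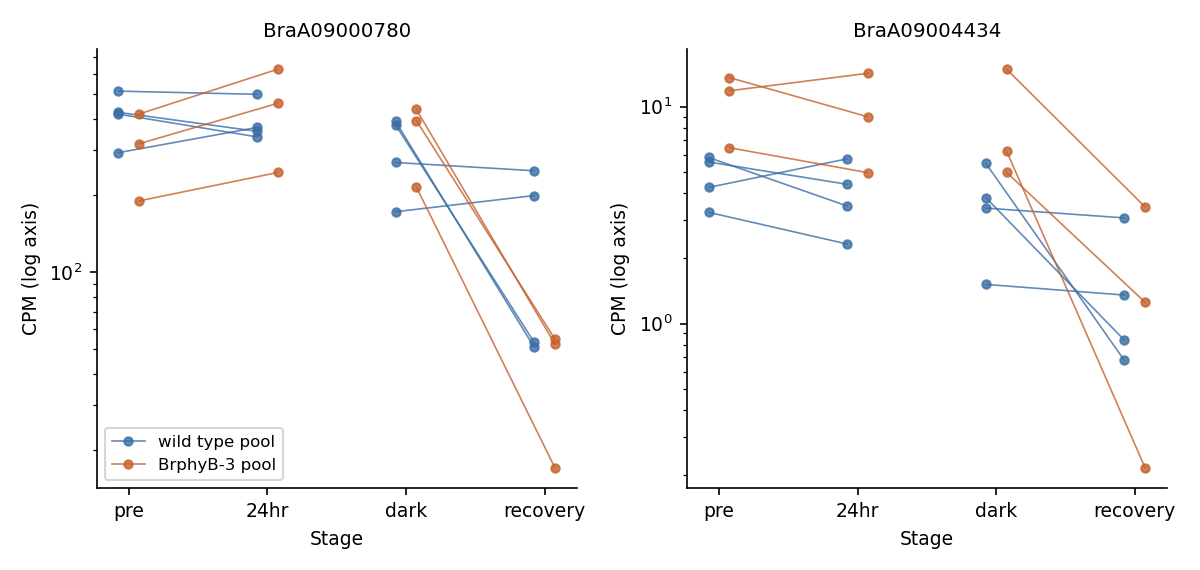
CPM (log axis) of the members BraA09000780 (left) and BraA09004434 (right) in every library, by stage. Lines join the libraries of a pool taken from the same leaf. In BrphyB-3 all 3 recovery points lie below the other 9, as the naming rule required. In the wild type, 2 pools of BraA09000780 show recovery values of 250 and 200 CPM, close to their dark values.

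The gene with the highest wild-type score did not fall by the test in the mutant. In wild-type pools 3 to 6 it stood at 1592, 1743, 1595 and 2259 CPM at pre, 1981, 1616, 1618 and 1563 CPM at 24hr, 810, 2949, 1282 and 2640 CPM at dark, then 322, 332, 143 and 301 CPM at recovery. In mutant pools 3, 4 and 5 it stood at 2460, 557 and 1361 CPM at pre, 2343, 509 and 1667 CPM at 24hr, 1624, 1265 and 351 CPM at dark, then 1069, 263 and 469 CPM at recovery. The mutant pools were far apart at pre, and the recovery library of pool 5 was above its dark library. The log2 fold change of recovery in the mutant was -1.24 against pre (SE 0.59, Benjamini-Hochberg adjusted p by edgeR 0.314), -1.24 against 24hr (adjusted p 0.246) and -0.68 against dark (adjusted p 0.326).

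The gene at rank 2 gave a clearer repeat. In mutant pools 3, 4 and 5 it stood at 15.7, 17.0 and 14.4 CPM at pre, 20.1, 27.3 and 26.8 CPM at 24hr, 34.9, 14.3 and 37.4 CPM at dark, then 4.20, 3.10 and 2.19 CPM at recovery. All 3 recovery libraries were below the other 9. Its log2 fold change of recovery in the mutant was -2.29 against pre (SE 0.50, Benjamini-Hochberg adjusted p by edgeR 0.0169), -2.88 against 24hr (SE 0.50, adjusted p 0.00183) and -3.01 against dark (SE 0.51, adjusted p 2.58e-05). With the mutant libraries alone the adjusted p against pre was 0.0561.

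Recovery was not the lowest mutant stage for 9 members, at ranks from 12 to 87, with gaps from -1.06 to -0.05. The member with the gap of -1.06, at rank 21, was lowest at 24hr in the mutant and varied strongly between libraries of a stage. In mutant pools 3, 4 and 5 it stood at 4.85, 7.03 and 169 CPM at pre, 0.797, 6.50 and 11.4 CPM at 24hr, 259, 120 and 208 CPM at dark, then 17.3, 5.69 and 11.3 CPM at recovery. Recovery was below dark in each pool, with a log2 fold change of -3.94 (SE 1.29, Benjamini-Hochberg adjusted p by edgeR 0.0125), while against 24hr it was 0.91 (SE 1.24, adjusted p 0.749). In wild-type pools 3 to 6 it stood at 8.24, 4.99, 6.65 and 87.2 CPM at 24hr and 4.36, 17.8, 6.24 and 1.08 CPM at recovery, so that these stages overlapped in the wild type as well.

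Members varied more between mutant libraries than the other genes that met the 2 conditions. The median SD of L over the 3 libraries of a stage was 0.49 for members and 0.31 for the others at pre, 0.42 and 0.28 at 24hr, 0.38 and 0.25 at dark, then 0.49 and 0.27 at recovery. Among members of 3 to 10 CPM, 1 of 24 fell against pre, 4 against 24hr and 10 against dark, where 0.533%, 2.24% and 5.54% of the genes of that level that met the 2 conditions fell. Among those of 10 to 100 CPM, 14 of 58 fell against pre, 27 against 24hr and 34 against dark, where 1.40%, 3.93% and 9.05% fell. Among those of 100 CPM or more, 5 of 18 fell against pre, 6 against 24hr and 11 against dark, where 3.86%, 6.53% and 15.1% fell. The shares of all such genes thus also differed with the level.

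Because wild-type values chose the members, the choice was repeated with 3 wild-type pools and read in the pool left out. Recovery was the lowest of the pool's 4 libraries for 56 of 100 chosen genes in pool 3, against 16.2% of the genes that met the 2 conditions in the other pools. It was the lowest for 68 in pool 4 (47.4%), 72 in pool 5 (32.8%) and 67 in pool 6 (25.7%). The median gap in the pool left out was 0.06, 0.26, 0.44 and 0.33. Each of these lists shared 52 to 60 genes with the 100 members.

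When the rule was applied to the mutant libraries, 5361 gene IDs met the 2 conditions, 51 of the members among them. The 100 highest mutant scores, which ran down to 0.88, held 17 of the members, 17% of either list, while 100 genes are 1.87% of those 5361.

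Scaling set which genes counted as steady in darkness. With TMM factors in place of column totals, the wild-type dark level moved by -0.37 in log2 against pre, and the recovery level by -0.06. The median difference of dark from pre over the members was 0.07 with column totals and -0.26 with TMM, and 79 of the 100 still differed by less than 0.5. Recovery was the lowest wild-type stage for all 100 with column totals, by the rule. It stayed so with TMM, whose shifts were smaller than the lowest score of 0.66, so this is no separate check. In the mutant, recovery was the lowest stage for 88 with TMM. A list chosen with TMM-scaled CPM shared 54 genes with the members, and 9 of its 100 genes fell in the mutant against pre.

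Levels of the genotypes are given without a test, because the wild-type values chose the genes. The median difference in L, mutant minus wild type, was -0.21 at pre, 0.08 at 24hr, 0.02 at dark, then -0.01 at recovery. At recovery 49 members were higher in the mutant and at pre 23 were. Over the other genes that met the 2 conditions the median difference was 0.13 at pre and 0.07 at recovery.

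The members were spread over the gene ID series that carry chromosome names. The A09 series held 17, A03 held 14 and A01 held 11, and each of the other A series held between 6 and 9, with 1 on a scaffold. The A09 series held 14.1% of the genes that met the 2 conditions, A03 held 14.8% and A01 held 9.39%. No members had adjacent IDs, the smallest step being 3, and 4 members had another within 10 IDs.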

How the data were processed

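The authors deposited unnormalized whole-number counts per gene ID and library. Per the submitters' processing notes, bcl2fastq 2.17.1.14, Trimmomatic 0.36, Bowtie2 and HTSeq were used. The genome build, annotation and strand setting were not given in the sources used here, so near-identical paralogs and overlapping or antisense genes are uncertain. Single reads of 80 bases came from poly(A) RNA, per the labels' protocols. There were 0 columns without a sample.

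The members, lists and tests were chosen with earlier results of these data known. Levels used column totals and a pseudocount of 1. Tests used R 4.3.3 and edgeR 4.0.16 (filterByExpr, TMM, estimateDisp, and glmQLFit with legacy set to FALSE, a form chosen after both forms were seen because it gave the counts of the earlier work). The filter kept 24992 IDs with 99.9% of the counts. The common biological coefficient of variation was 0.365. The SE was derived from the F statistic and the log2 fold change, so it is approximate. P-values were adjusted over all genes tested. The code was tested on simulated data. The naming rule printed at most 2 IDs that fell and 2 that rose, and 0 members rose. The genes at ranks 1, 2, 21 and 59 were singled out after their values were seen.

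Within each group, libraries differed by more than counting noise (lowest mean chi-square per gene 9.84). Per the labels' protocols, a pool's libraries share their plants. In the mutant their deviations from stage means had a median correlation of 0.153, against -0.0739 between pools. P-values of the main fit rest on the spread between plant pools within a group, over both genotypes, with no term for the pool. The alternatives were DESeq2 1.42.0, RLE scaling, no filter, the mutant libraries alone, a pool block, each pool left out, and 6 changes to the rule.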

Additional observations from a re-analysis of the deposited data

Results flagged for a closer look

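Both values that stood apart belonged to the gene with the highest wild-type score. At 24hr, wild-type replicate 3 had 1981 CPM, while the other 3 had 1563 to 1618 CPM. At recovery, wild-type replicate 5 had 143 CPM, while the other 3 had 301 to 332 CPM. In each case the gap to the nearest library was large for the range of the 4. Of 16 sets of 4 libraries examined, all of them wild type, 2 held such a value. Chance gives about 1 in 20 for sets not chosen by their values. The rule used these wild-type values, so that rate cannot be applied here and no conclusion is drawn. What lay behind either value was not tested.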

How the results depend on the processing

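The count of members that fell against dark in the mutant stayed within 1.5 times of 55 under all 19 alternatives, from 44 to 62, and recovery was the lowest mutant stage for 80% to 94% of the list under the 14 run for it. With the mutant libraries alone, 0 members fell against pre, 20 against 24hr and 0 in all 3 contrasts. With TMM-scaled CPM in the rule, 9% of the list fell against pre and 9% in all 3, and 31% changed between dark and pre. With dark within 0.25 of pre, 10% changed between them. Without 1 pool, members that fell ranged from 1 to 16 against pre, from 4 to 36 against 24hr and from 0 to 15 in all 3, and those that changed between dark and pre from 5 to 26. These ranges include a new choice of members where a wild-type pool was left out. With the members kept, an alternative added after seeing the data, leaving a wild-type pool out of the fit gave 15 to 20 against pre, 32 to 40 against 24hr, 54 to 58 against dark, 14 to 19 in all 3 and 15 to 21 for dark against pre. The plant pool as replicate block gave 21 members against pre, 42 against 24hr, 57 against dark, 19 in all 3 and 22 for dark against pre, so the block moved no count by over 1.5 times. No member passed for 24hr against pre under any of the 19, and 11 had an unadjusted p under 0.05 by edgeR. Fits to fewer libraries have less behind their spread, but the cause of the shifts was not tested. The legacy form of the fit, added after seeing the data, gave 17, 33 and 55 members against pre, 24hr and dark. There were 10 members with 10 or fewer counts in a mutant recovery library, where counting error adds to the spread.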
